A study of Mus musculus with 21 samples.

Results

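The 10 genes described here encode tumour necrosis factor (Tnf), interleukin-1 alpha and beta (Il1a, Il1b), the interleukin-1 receptor antagonist (Il1rn), interleukins 6, 10, 18 and 33 (Il6, Il10, Il18, Il33), oncostatin M (Osm) and leukaemia inhibitory factor (Lif). They were chosen by name, as inflammatory cytokines, and 10 of 10 were found among the 52636 Ensembl gene rows of a raw count table from mouse liver. Of these, 8 passed the filter on low counts and were tested, and Il6 and Il10 did not. All 21 libraries were total RNA from livers of wild-type mice, made with a stranded total RNA kit. The chow group (n = 5) was killed after 8 weeks on normal chow and is called week 0 by the labels. The others received CDA-HFD for 8 weeks (n = 8) or 16 weeks (n = 8). The labels do not spell out CDA-HFD, which in this field commonly stands for a choline-deficient, amino acid-defined, high-fat diet, and the series title names the model as a fibrotic steatohepatitis. The sources used here do not give strain, sex or age. No chow group of 16 weeks is among the samples, so that diet and time on study cannot be told apart in that comparison, and both comparisons with chow share the same 5 chow livers.

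Cytokines are secreted proteins that cells use to start, spread and end inflammation. TNF and the IL-1 agonists act through their receptors on the NF-kB pathway, and the IL-1 receptor antagonist occupies the same receptor without activating it. IL-1 beta and IL-18 are made as inactive precursors that caspase-1 cleaves, whereas IL-33 and IL-1 alpha are active or partly active as made and are released from damaged cells. IL-6, oncostatin M and LIF share the receptor chain encoded by Il6st and signal mainly through STAT3, which in hepatocytes drives the acute phase genes, and IL-10 restrains macrophages. In liver, macrophages are the main source of several of these proteins, while IL-33 is held in the nuclei of stromal and other structural cells.

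Total counts ran from 29037525 to 48901145 per library. Hepatocyte markers were abundant in every library, summed to between 74300 and 336400 CPM (read counts scaled to TMM-adjusted library size). Some libraries held transcripts of other tissues. Squamous epithelium markers, at most 0.860 CPM in chow, summed to 1984 CPM in 8-week replicate 3, which also had the lowest share of mitochondrial counts (0.2495%), and to 79.1 to 293.9 CPM in 8-week replicate 6 and 16-week replicates 1, 4 and 7. Pancreas markers reached 8116 CPM in 8-week replicate 4 and 384.2 CPM in replicate 5. Skeletal muscle markers summed to 2363 CPM in 8-week replicate 3 and to 360.9 CPM in chow replicate 5. They summed to 210.4 to 368.8 CPM in 8-week replicate 6 and 16-week replicates 1, 4 and 7. Il1rn, Il33, Osm and Lif were each lowest, among the 8-week livers, in replicate 3, and Il6 and Il10 had no count there. The labels do not state that each library is a separate animal, so p-values measure the spread between these samples. Each library is called a liver in this text.

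Promoter windows of 250 bases before the RefSeq start (GRCm38.p6) were matched for 8 of the 10 genes (all but Il10 and Osm), in 11 windows. Shown 5′ to 3′ are the windows of Tnf, Il1rn (the most upstream of its starts) and Lif, the genes whose libraries rose clear of chow at both times, and of Il1a and Il6, which hold matches but were not called. Capitals mark matches to the AP-1 motif TGANTCA and to the NF-kB consensus, both searched on both strands.
Tnf, chr17:35202008-35202257, minus strand: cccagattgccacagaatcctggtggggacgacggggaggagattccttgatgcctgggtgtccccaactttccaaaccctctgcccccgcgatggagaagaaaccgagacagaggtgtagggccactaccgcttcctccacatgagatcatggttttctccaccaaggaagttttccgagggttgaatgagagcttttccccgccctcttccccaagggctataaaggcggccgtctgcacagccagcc
Il1rn, chr2:24336610-24336859, plus strand: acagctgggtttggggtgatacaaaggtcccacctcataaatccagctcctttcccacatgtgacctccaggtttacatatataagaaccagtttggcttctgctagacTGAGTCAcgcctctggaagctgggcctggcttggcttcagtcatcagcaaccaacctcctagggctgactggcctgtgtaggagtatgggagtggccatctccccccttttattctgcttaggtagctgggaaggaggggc
Lif, chr11:4257318-4257567, plus strand: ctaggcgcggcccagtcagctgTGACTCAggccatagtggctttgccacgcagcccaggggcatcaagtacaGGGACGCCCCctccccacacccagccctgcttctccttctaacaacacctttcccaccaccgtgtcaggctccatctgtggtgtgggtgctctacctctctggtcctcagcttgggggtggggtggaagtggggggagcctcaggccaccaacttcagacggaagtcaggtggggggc
Il1a, chr2:129309973-129310222, minus strand: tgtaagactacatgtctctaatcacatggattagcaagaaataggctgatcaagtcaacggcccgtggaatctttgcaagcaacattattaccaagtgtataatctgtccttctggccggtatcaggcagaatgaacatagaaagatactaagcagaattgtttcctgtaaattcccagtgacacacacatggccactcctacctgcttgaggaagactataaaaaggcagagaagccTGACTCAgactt
Il6, chr5:30012864-30013113, plus strand: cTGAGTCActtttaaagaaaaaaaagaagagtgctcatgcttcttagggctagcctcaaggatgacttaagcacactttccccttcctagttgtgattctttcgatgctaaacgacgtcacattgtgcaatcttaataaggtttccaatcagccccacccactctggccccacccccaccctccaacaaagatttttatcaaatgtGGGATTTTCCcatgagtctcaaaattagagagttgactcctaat
An NF-kB match was present in 2 of the 11 windows, GGGATTTTCC at 44 to 35 bases before the start of Il6 and GGGACGCCCC at 178 to 169 bases before the start of Lif. AP-1 matches stood in 4 windows, those of Il1a (12 to 6 bases before the start), Il1rn (141 to 135), Il6 (249 to 243) and Lif (228 to 222). No window held the STAT motif TTCNNNGAA. Over all 32851 windows of the same length, 7.25% held the NF-kB consensus, 6.75% the AP-1 motif and 7.02% the STAT motif. Among the windows shown for the genes that rose most, Lif had matches to both motifs, Il1rn to AP-1 alone and Tnf to neither within these letters. The Il1rn windows before its other starts (chr2:24345041-24345290 and chr2:24345121-24345370) held no match to any of these motifs. Which start was used in these livers was not tested.

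At 8 weeks, 6 of the 8 tested cytokine genes rose (Tnf, Il1b, Il1rn, Il33, Osm and Lif) and 0 fell at an adjusted p under 0.05. Over all 17104 genes tested, 51.3% were called at 8 weeks and 30.8% rose. At 16 weeks, 5 rose (the same without Il1b) and Il18 fell, where 51.9% of all genes were called, 29.4% up and 22.5% down. The median log2 change of the 8 genes was 1.94 at 8 weeks and 2.47 at 16 weeks, beside 0.16 and 0.03 for all genes tested. At 8 weeks 3 of the 8 did not overlap chow, all of them above it, where 30.1% of all genes did not overlap and 15.3% were above. At 16 weeks 6 did not overlap (50.5% of all genes), 5 of them above chow (27.2%). Scaling by library totals without TMM factors shifted the median log2 change of all genes by 0.12 at 8 weeks, 0.53 at 16 weeks and 0.38 between these times. The higher share among called genes then became 78.3%, 89.5% and 94.8%, compared with 60.1%, 56.6% and 49.0% under TMM. Under that scaling 7 of the cytokine genes rose at 16 weeks, with Il1a (0.72) and Il1b (0.63) added, and 0 fell. The livers are bulk tissue, in which a change in the number of cells of a type and a change in RNA per cell cannot be told apart.

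**Figure D1:**
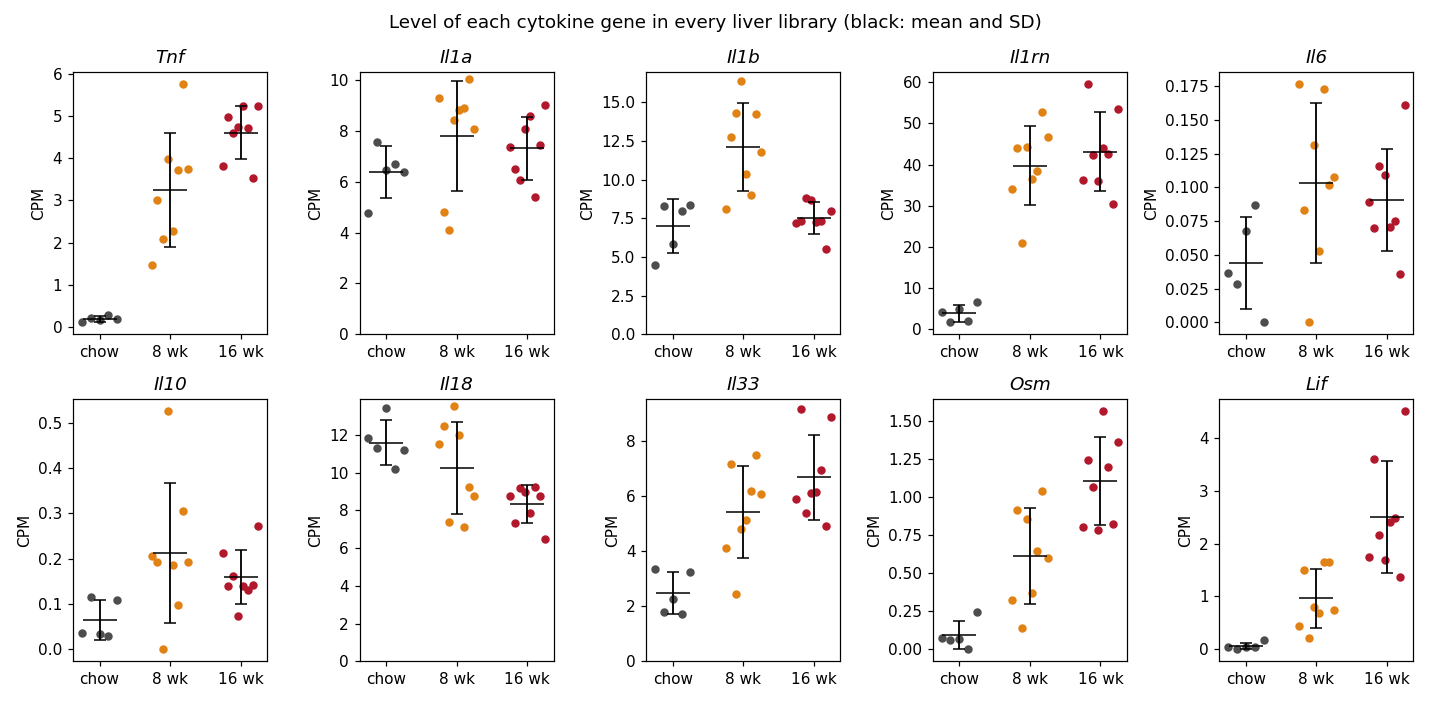
Level of each of the 10 cytokine genes in CPM (vertical axis, own scale per gene) in every chow, 8-week and 16-week library (points), with the mean and SD in black. Tnf, Il1rn and Lif lie above all chow livers at both times, while Il1a overlaps chow throughout and Il1b, on this TMM scale, is raised at 8 weeks.

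Tnf (ENSMUSG00000024401, GRCm38 chr17:35199381-35202007, minus strand) was close to the limit of detection in chow livers, at 0.110, 0.201, 0.169, 0.290 and 0.192 CPM, from 3 to 10 counts per library. After 8 weeks the lowest, median and highest of the 8 livers were 1.47, 3.37 and 5.77 CPM, and after 16 weeks 3.53, 4.735 and 5.23 CPM. Every CDA-HFD liver thus exceeded every chow liver at both times, which held for 15.3% of all tested genes at 8 weeks and 27.2% at 16 weeks. The fitted rise was 16.6-fold at 8 weeks (log2 4.05, SE 0.32, adjusted p = 6.79e-09) and 23.3-fold at 16 weeks (log2 4.54, SE 0.32, adjusted p = 8.99e-10). Tnf varied less at 16 weeks (SD 0.627 around a mean of 4.61 CPM, n = 8) than at 8 weeks (SD 1.35 around 3.26 CPM, n = 8); the difference in spread was not tested.

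Macrophage markers, taken as a sum, were also higher in both diet groups than in chow. Their summed level was 362.4 to 494.5 CPM in chow, 1422 to 7196 CPM at 8 weeks and 2677 to 4615 CPM at 16 weeks. In the diet groups most of this level, on average, was Lyz2 and Gpnmb. In chow, 8-week and 16-week livers the means were 86.94, 1549 and 1582 CPM (Lyz2) and 0.3566, 553 and 1230 CPM (Gpnmb). Adgre1 and Csf1r rose less, by 1.26 and 1.56 on the log2 scale at 8 weeks and 1.57 and 1.46 at 16 weeks. Of the 12 markers, 11 rose and 0 fell at 8 weeks, and 9 rose and 1 fell at 16 weeks, with none at 0 in any group. The marker that fell was Timd4 (-3.02), and Clec4f and Vsig4 were not called at 16 weeks. The sum in 8-week replicate 3 (7196 CPM) was the highest of all 21, and Tnf in that library was 2.09 CPM, below the 8-week median. That library also held the highest squamous epithelium (1984 CPM) and skeletal muscle (2363 CPM) sums. Its Tnf value rests on 30 counts, so the pair of values is given as a description alone. Markers of some other cell types rose as well. Dendritic cell markers had median sums of 4.22, 17.8 and 19.6 CPM in chow, 8-week and 16-week livers, and 6 of 6 rose at both times. Of 8 T and NK cell markers, 7 rose and 1 fell at each time. Of 6 endothelial cell markers, 1 rose at 8 weeks and 0 at 16 weeks, and 1 fell at each time. The part of macrophage or other cell number in the Tnf result was not tested.

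Among the other ligands of the TNF superfamily, 8 of 10 tested genes rose at 8 weeks and 9 at 16 weeks, and 0 fell at either time. Their medians were 1.57 and 2.03, and 30.8% and 29.4% of all genes tested rose at these times. Ltb, lymphotoxin beta, rose by 2.37 (SE 0.40) and 3.06 (SE 0.41) on the log2 scale, from 0.910 ± 0.437 CPM (SD, n = 5) to 4.76 ± 2.70 and 7.59 ± 2.36 CPM (n = 8 each). Tnfsf13b, the B cell survival factor BAFF, rose by 1.74 at 8 weeks and by 2.71 (SE 0.33) at 16 weeks. Tnfsf9, the ligand of the T cell receptor 4-1BB, rose by 2.24 (SE 0.44) and 2.65 (SE 0.43). Lta, lymphotoxin alpha, was called at 8 weeks (1.74, SE 0.54) but not once 8-week replicates 3, 4 and 5 were left out (1.24, adjusted p = 0.0604).

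Among receptors and signalling genes of TNF, of 11 tested, 5 rose and 2 fell at 8 weeks, and 2 rose and 2 fell at 16 weeks. Their medians were 0.25 and 0.30, and 51.3% and 51.9% of all genes tested were called at these times. Tnfrsf1b, the receptor found mainly on immune cells, rose by 0.84 at 8 weeks. At 16 weeks its rise was 1.07 (SE 0.13), from 59.4 ± 7.32 CPM in chow to 125 ± 14.7 CPM. Rhbdf2, a partner of the protease that sheds TNF from the cell surface, rose by 0.98 (SE 0.28) and 1.18 (SE 0.28), and Traf2, an adaptor of the receptors, by 0.94 (SE 0.28) at 8 weeks, a call lost when only the 2 groups compared were fitted (adjusted p = 0.0596). Map3k7, the kinase TAK1, fell at both times (-0.86 and -0.77), though not at 16 weeks under total counts alone (-0.24, adjusted p = 0.451). Tnfrsf1a, the broadly expressed receptor, was not called (0.17, adjusted p = 0.398 and 0.12, adjusted p = 0.576); it lies outside the naming rule and was picked for its role with its values known. The number called at 16 weeks was 8 (6 up, 2 down), in place of 4, without 8-week replicate 3, and 9, all up, under total counts alone.

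Genes known to respond to TNF and NF-kB mostly rose. Of 16 tested, 12 rose and 1 fell at 8 weeks and 13 rose and 1 fell at 16 weeks, with medians of 1.63 and 2.01. The share of all genes tested that rose was 30.8% at 8 weeks and 29.4% at 16 weeks. Ccl2, a monocyte attractant, rose by 3.60 (SE 0.40) and 3.42 (SE 0.39), from 1.195 ± 0.577 CPM in chow to 14.6 ± 7.24 and 12.9 ± 2.39 CPM. Cxcl2, a neutrophil attractant, rose by 3.93 (SE 0.41) and 3.37 (SE 0.40). Ptgs2, the inducible cyclooxygenase, rose by 3.99 (SE 0.62) and 3.37 (SE 0.62) from 12 counts over the 5 chow libraries. The gene that fell was Sod2, the mitochondrial superoxide dismutase, at -0.54 and -0.87; it is named because it was the lone exception, and under total counts alone 0 genes of the list fell.

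Il1b and Il1a, the agonists of the IL-1 receptor, moved little beside Tnf. Il1b (ENSMUSG00000027398, chr2:129364570-129371139, minus strand) was 4.49, 8.26, 5.84, 7.97 and 8.35 CPM in the chow livers. At 8 weeks its lowest, median and highest values were 8.08, 12.3 and 16.4 CPM, which overlap the top of the chow range, and at 16 weeks 5.52, 7.32 and 8.83 CPM, within and just above it. The rise at 8 weeks was 1.73-fold (log2 0.79, SE 0.18, adjusted p = 0.00126). At 16 weeks the difference from chow was 0.10 (95% interval -0.24 to 0.45, adjusted p = 0.653), called only under total counts alone (0.63, adjusted p = 0.0148). Il1b was thus raised at the earlier time point and, with TMM scaling, not distinguishable from chow at the later one.

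Il1a (ENSMUSG00000027399, chr2:129299610-129309972, minus strand) was 6.38 ± 1.01 CPM in chow (SD, n = 5), 7.81 ± 2.16 at 8 weeks and 7.31 ± 1.25 at 16 weeks (n = 8 each), and the groups overlapped. Its change was 0.29 at 8 weeks (95% interval -0.08 to 0.67, adjusted p = 0.203) and 0.20 at 16 weeks (-0.18 to 0.57, adjusted p = 0.418). A change of up to 0.67 on the log2 scale lies within these intervals. Both agonist genes overlap a gene on the other strand (Gm14023 for Il1a, Il1bos for Il1b), and whether counting used strand is not given in the sources used here. Il1bos was near 0 in every group (means of 0.0513, 0.0447 and 0.0468 CPM), and Gm14023 was 1.04, 1.72 and 1.35 CPM.

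Neutrophil markers, from another cell type that makes IL-1 beta, summed to 1.97 to 17.9 CPM in chow, 9.73 to 138.2 CPM at 8 weeks and 11.3 to 26.3 CPM at 16 weeks. Of the 8 tested, 6 rose at 8 weeks and 4 at 16 weeks, and the defining neutrophil marker Ly6g had 3 counts over the chow livers, with none in 3 of them. Their part in the Il1b result was not tested.

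Il1rn, the antagonist (ENSMUSG00000026981, chr2:24336853-24351494, plus strand), showed the largest rise in absolute CPM among the 10. It was 4.08, 1.61, 4.82, 1.97 and 6.52 CPM in chow. The lowest, median and highest values were 21, 41.2 and 52.9 CPM at 8 weeks and 30.4, 42.4 and 59.7 CPM at 16 weeks. All 16 CDA-HFD livers lay above the highest chow liver. The rise was 10.5-fold at 8 weeks (log2 3.39, SE 0.31, adjusted p = 4.59e-08) and 11.3-fold at 16 weeks (log2 3.50, SE 0.32, adjusted p = 1.36e-08). The lowest CDA-HFD value, 21 CPM, was that of 8-week replicate 3, without which the 8-week rise was 3.47.

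Within each library the balance between antagonist and agonist transcripts was therefore examined as a ratio of CPM per kilobase of exon, a measure chosen after the values were seen and given as a description. Il1rn over Il1b was 0.204 ± 0.118 in chow (SD, n = 5), 1.18 ± 0.322 at 8 weeks and 1.99 ± 0.431 at 16 weeks (n = 8 each). Its range was 0.0670 to 0.314 in chow, 0.505 to 1.475 at 8 weeks and 1.43 to 2.81 at 16 weeks. Per kilobase of exon, Il1b was higher than Il1rn in every chow liver, and the reverse was so in every 16-week liver. The lengths used, 5535 bases for Il1rn and 1907 for Il1b, are unions of all annotated exons. Which isoforms were present was not tested, so the ratio is one of reads per length and not of molecules. Il1rn over Il1a was 0.223 ± 0.127, 1.90 ± 0.607 and 2.16 ± 0.639 in the same order. Tnf over Il1b rose from 0.0319 ± 0.00637 in chow to 0.315 ± 0.115 and 0.718 ± 0.0874, with ranges that did not overlap between any of the groups (0.0267 to 0.0423, 0.169 to 0.481 and 0.606 to 0.837). These ratios need no scaling between libraries, since both genes come from the same one.

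**Figure D2:**
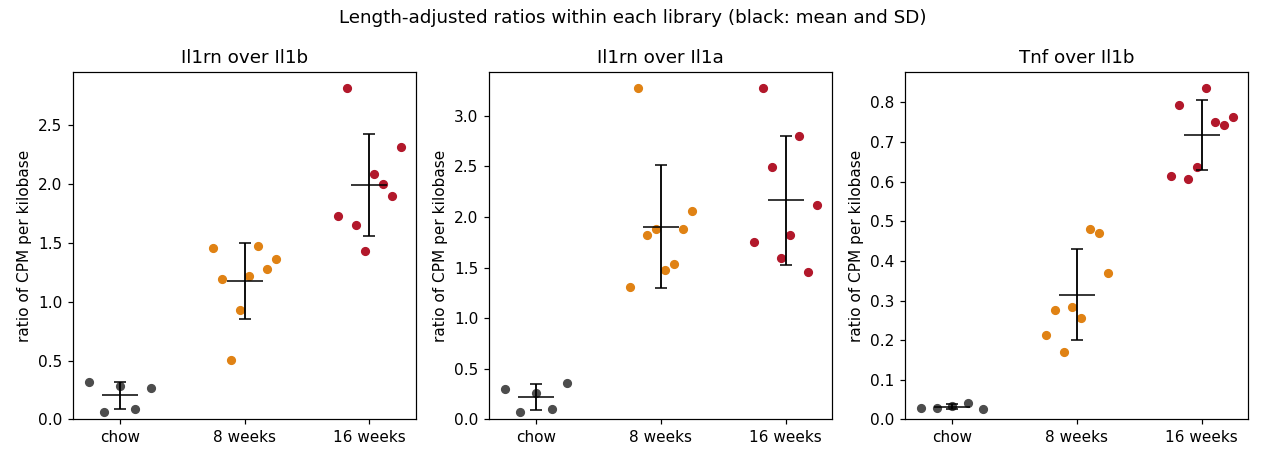
Ratio of CPM per kilobase of exon within each library (vertical axes) for Il1rn over Il1b, Il1rn over Il1a and Tnf over Il1b in chow, 8-week and 16-week livers (points), with the mean and SD in black. Il1rn over Il1b is at most 0.314 in chow and at least 1.43 at 16 weeks, and Tnf over Il1b steps up in separate bands.

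Receptors of the IL-1 family and their decoys changed in both directions. Of 9 tested, 5 rose and 1 fell at 8 weeks, and 6 rose and 1 fell at 16 weeks, with medians of 0.74 and 1.01. Over all genes tested, 51.3% and 51.9% were called at these times. Il1r2, a decoy that binds IL-1 without signalling, rose by 3.31 (SE 0.65) and 2.72 (SE 0.64) from 18 counts over the chow livers. Without chow replicate 5 the values were 4.67 and 4.08, and without 8-week replicate 3 the former was 2.72. Il1rl2, the receptor of the IL-36 cytokines, rose by 1.71 (SE 0.27) and 2.69 (SE 0.28), from 0.534 ± 0.244 CPM to 1.75 ± 0.451 and 3.44 ± 0.715 CPM. The single other IL-1 family ligand that could be tested, Il1f9, which encodes IL-36 gamma, rose by 3.84 (SE 0.43) and 2.98 (SE 0.42).

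The signalling receptor Il1r1 and its partner Il1rap, named outside the rule for their role and with values known, did not rise. Il1r1 was 71.1 ± 37.5 CPM in chow, 36.6 ± 18.1 at 8 weeks and 45.6 ± 9.01 at 16 weeks and was not called (adjusted p = 0.0600 and 0.211). Il1rap fell, by 0.72 (adjusted p = 0.0269) and 1.32 (adjusted p = 0.000231) on the log2 scale. In the list of IL-1 processing and signalling genes, 5 of 11 rose and 2 fell at each time. The share called over all genes tested was 51.3% at 8 weeks and 51.9% at 16 weeks. Pycard, the inflammasome adaptor ASC, rose by 3.07 (SE 0.43) and 2.97 (SE 0.43). Casp1, which cleaves the precursors of IL-1 beta and IL-18, rose by 2.02 (SE 0.20) and 2.20 (SE 0.20), from 2.80 ± 0.165 CPM in chow to 11.4 ± 3.28 and 12.9 ± 2.46 CPM. Casp4, the inflammatory caspase that senses bacterial lipopolysaccharide, rose by 2.33 (SE 0.36) and 2.80 (SE 0.36). Under total counts alone, 8 rose and 0 fell in this list at 16 weeks.

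Il18 (ENSMUSG00000039217, chr9:50554827-50581840, plus strand) did not rise with Il1rn and Tnf. It was 11.8, 11.3, 13.4, 10.2 and 11.2 CPM in the chow livers. At 8 weeks it ran from 7.11 to 13.5 CPM with a median of 10.4, overlapping chow, and was not called (-0.18, 95% interval -0.47 to 0.12, adjusted p = 0.325). At 16 weeks it ran from 6.50 to 9.24 CPM with a median of 8.76, and all 8 livers lay below the lowest chow liver. The fall of 0.48 on the log2 scale (SE 0.15, adjusted p = 0.00982) was called with TMM scaling but turned to 0.05 (adjusted p = 0.858) under total counts alone. Tex12 and Bco2 overlap Il18 on the other strand, and Bco2, a carotenoid-cleaving enzyme, was itself 30.1 ± 2.97, 24.1 ± 8.12 and 19.7 ± 4.84 CPM in the 3 groups, with a change of -0.61 at 16 weeks (adjusted p = 0.0386). The part of reads from Bco2 in the Il18 value was not tested. Il18bp, the secreted protein that binds and neutralises IL-18, rose by 1.35 (SE 0.13) and 1.01, from 17.3 ± 1.85 CPM in chow to 44.1 ± 8.78 and 34.9 ± 2.03 CPM.

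Il33, the nuclear alarmin (ENSMUSG00000024810, chr19:29925114-29960718, plus strand), rose moderately. The chow livers held 3.35, 1.81, 2.26, 1.74 and 3.26 CPM. The lowest, median and highest values were 2.43, 5.61 and 7.49 CPM at 8 weeks, where replicate 3 alone fell within the chow range, and 4.93, 6.13 and 9.15 CPM at 16 weeks, above all chow livers. The rise was 2.20-fold at 8 weeks (log2 1.14, SE 0.24, adjusted p = 0.000755) and 2.69-fold at 16 weeks (log2 1.43, SE 0.25, adjusted p = 5.3e-05). Il1rl1, the receptor of IL-33, was called at 16 weeks alone, at 2.60 (SE 0.42), and went from 0.105 ± 0.0659 CPM in chow to 0.165 ± 0.0913 at 8 weeks and 0.651 ± 0.183 at 16 weeks; the step between 8 and 16 weeks was 1.89 (adjusted p = 0.000571). Markers of stellate cells and fibroblasts summed to 285.9 to 454.3 CPM in chow, 707.5 to 1713 CPM at 8 weeks and 1448 to 2053 CPM at 16 weeks, with 7 and 6 of 9 markers rising and none at 0. Their part in the Il33 result was not tested.

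Of the 3 members here that belong to the IL-6 family, Osm and Lif rose steeply from very low levels and Il6 could not be tested. Lif (ENSMUSG00000034394, chr11:4257557-4272514, plus strand) was 0.0368, 0, 0.0337, 0.0290 and 0.164 CPM in chow, or 9 counts in all, of which 6 were in replicate 5. At 8 weeks its lowest, median and highest values were 0.209, 0.760 and 1.66 CPM, and at 16 weeks 1.36, 2.29 and 4.52 CPM. Each CDA-HFD liver exceeded each chow liver, although the lowest 8-week value rests on 3 counts in replicate 3. The rise was 17.0-fold at 8 weeks (log2 4.09, SE 0.62, adjusted p = 1.88e-05) and 43.5-fold at 16 weeks (log2 5.44, SE 0.63, adjusted p = 3.32e-07). Without chow replicate 5 these were 5.18 and 6.54 on the log2 scale, so the sizes depend on a few chow counts. Bile duct markers, whose summed level also climbed with time, came to 50.8 to 84.6 CPM in chow, 94.7 to 479.4 CPM at 8 weeks and 449.8 to 1504 CPM at 16 weeks. Most of these sums was Spp1, with means of 50.9, 194.3 and 868 CPM. At 16 weeks the means of Epcam, Sox9, Krt19 and Krt7 were 29.3, 25.4, 15.0 and 7.75 CPM. Of the 5 markers, 4 rose at 8 weeks (all but Sox9) and 5 at 16 weeks. The part of bile duct cells in the Lif result was not tested.

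Osm (ENSMUSG00000058755, chr11:4236420-4241026, plus strand), the neighbour of Lif on chromosome 11, was 0.0735, 0.0574, 0.0675, 0 and 0.247 CPM in chow, or 15 counts, 9 of them in replicate 5. The lowest, median and highest values were 0.139, 0.623 and 1.04 CPM at 8 weeks and 0.785, 1.13 and 1.57 CPM at 16 weeks. At 8 weeks replicate 3, with 2 counts, fell below the highest chow liver, and at 16 weeks all livers lay above it. The rise was 6.68-fold at 8 weeks (log2 2.74, SE 0.52, adjusted p = 0.000238) and 11.8-fold at 16 weeks (log2 3.57, SE 0.52, adjusted p = 7.77e-06), or 3.62 and 4.44 on the log2 scale without chow replicate 5.

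Il6 (ENSMUSG00000025746, chr5:30013114-30019981, plus strand) had 7 counts over the chow livers, 31 at 8 weeks and 40 at 16 weeks. Its mean was 0.0440 ± 0.0340 CPM (SD, n = 5), 0.103 ± 0.0595 and 0.0909 ± 0.0378 CPM (n = 8 each), with 1 chow and 1 8-week liver at 0. With no filter on low counts the change was 1.28 (95% interval 0.15 to 2.4, adjusted p = 0.104) and 1.05 (-0.05 to 2.15, adjusted p = 0.177). At this depth a change of Il6 was not detectable after adjustment, and the intervals allow one of over 2 on the log2 scale. Among Il6, Osm and Lif, Il6 thus had the fewest counts in the diet groups.

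Among the receptors of this family, Lifr, the LIF receptor chain, fell from 577 ± 189 CPM in chow to 115 ± 41.4 and 78.0 ± 17.3 CPM (log2 -2.33, SE 0.26, adjusted p = 3.77e-07, and -2.89, SE 0.26, adjusted p = 1.25e-08), and all CDA-HFD livers lay below all chow livers. Il6st, the shared chain, fell by 0.79 (adjusted p = 0.00188) and 0.69 (adjusted p = 0.00435), calls that were lost under total counts alone (-0.60, adjusted p = 0.0659, and -0.16, adjusted p = 0.624). Osmr, the specific oncostatin M receptor chain, rose by 1.37 (SE 0.22, adjusted p = 1.89e-05) at 16 weeks, from 6.04 ± 2.13 to 15.6 ± 3.77 CPM. Its rise at 8 weeks (0.55, adjusted p = 0.0331) was lost under several alternatives, up to an adjusted p of 0.0988. Il27ra, the IL-27 receptor, rose by 1.5 (SE 0.16) and 1.68 (SE 0.16). In all, 2 of 7 receptors rose and 2 fell at each time, a number called near the share over all genes (51.3% and 51.9%). Lif rose while Lifr fell, and at 16 weeks Osm and Osmr both rose.

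Other ligands of the family rose in 4 of 6 tested genes at 8 weeks and 3 at 16 weeks, with 1 falling at each time. Of all genes tested, 51.3% and 51.9% were called, and 30.8% and 29.4% rose. Clcf1, cardiotrophin-like cytokine, rose by 2.12 (SE 0.31) and 3.48 (SE 0.32), from 0.879 ± 0.210 CPM to 3.81 ± 1.46 and 9.81 ± 3.01 CPM. Ebi3, a subunit of IL-27, rose by 1.89 (SE 0.30) and 1.61 (SE 0.29). The one that fell was Cntf, ciliary neurotrophic factor, named after its values were seen, at -0.82 and -1.25.

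Genes that IL-6 and STAT3 are known to induce changed in both directions. Of 17 tested, 4 rose and 5 fell at 8 weeks and 2 rose and 10 fell at 16 weeks, with medians of -0.03 and -0.94. Over all genes tested, 51.3% and 51.9% were called at these times. Under total counts alone 3 genes of the list rose and 7 fell at 16 weeks. The 9 calls at 8 weeks became 5 (4 up, 1 down) under total counts alone, with no filter, without chow replicate 3 or without 8-week replicate 2, and 3 when only the 2 groups compared were fitted. Timp1, an inhibitor of matrix metalloproteinases, rose, by 7.18 (SE 0.89) and 6.25 (SE 0.86), from 0.211 ± 0.120 CPM in chow to 30.5 ± 44.4 and 15.9 ± 5.31 CPM. Its 8-week rise was 6.17 without replicate 3, which held 138.5 CPM. Lcn2, lipocalin 2, also rose, by 3.91 (SE 0.79) and 2.96, or 5.40 and 4.46 without chow replicate 5. Saa1 and Saa2, serum amyloids of the acute phase, fell at 16 weeks by 3.21 (SE 0.74) and 3.76 (SE 0.78), and by 2.07 and 2.44 without chow replicate 5. Saa1 in chow ran from 29.7 to 2285 CPM. Orm2, an acute phase glycoprotein, was called at 8 weeks (2.39, SE 0.76, or 3.29 without chow replicate 5), and not when only the 2 groups compared were fitted (adjusted p = 0.0539). Hepatocyte markers fell in 3 of 6 cases at 16 weeks and rose in 0, and their part in this list was not tested.

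Il10 (ENSMUSG00000016529, chr1:131019845-131024974, plus strand), the anti-inflammatory member, had 11 counts in chow, 62 at 8 weeks and 71 at 16 weeks. Its mean was 0.0648 ± 0.0434 CPM (SD, n = 5), 0.214 ± 0.154 and 0.160 ± 0.0600 CPM (n = 8 each), and the groups overlapped. In the fit with no filter the change was 1.69 at 8 weeks (SE 0.55, adjusted p = 0.0231) and 1.27 at 16 weeks (SE 0.54, adjusted p = 0.0823). Il10 passed the filter whenever a chow library was left out, and its 16-week change was called without chow replicate 2 (1.52) or 5 (1.5) but not without the others. Il10ra and Il10rb, the chains of its receptor, rose by 1.75 (SE 0.18) and 1.48 (SE 0.29) at 8 weeks and by 2.16 each (SE 0.18 and 0.30) at 16 weeks. Of the other 10 genes of the IL-10 family and its receptors 4 could be tested. Il10ra and Il10rb were the 2 that rose at each time, where 51.3% and 51.9% of all genes were called. At 16 weeks all 4 rose under total counts alone or without 8-week replicates 3, 4 and 5.

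Among other interleukins, 5 of 6 tested genes rose at 8 weeks and 6 at 16 weeks, and 0 fell, where 30.8% and 29.4% of all genes rose. Il12b and Il23a, which together encode IL-23, rose by 3.35 (SE 0.66) and 2.67 (SE 0.58) at 8 weeks and by 3.90 (SE 0.66) and 3.44 (SE 0.58) at 16 weeks, from 6 and 19 counts in chow. Il15, which sustains NK and memory T cells, rose by 1.40 (SE 0.19) and 1.84, from 0.995 ± 0.311 CPM to 2.62 ± 0.359 and 3.57 ± 0.475 CPM. Il7, a lymphocyte survival factor, was called at 16 weeks at 1.99 (SE 0.38).

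**Figure D3:**
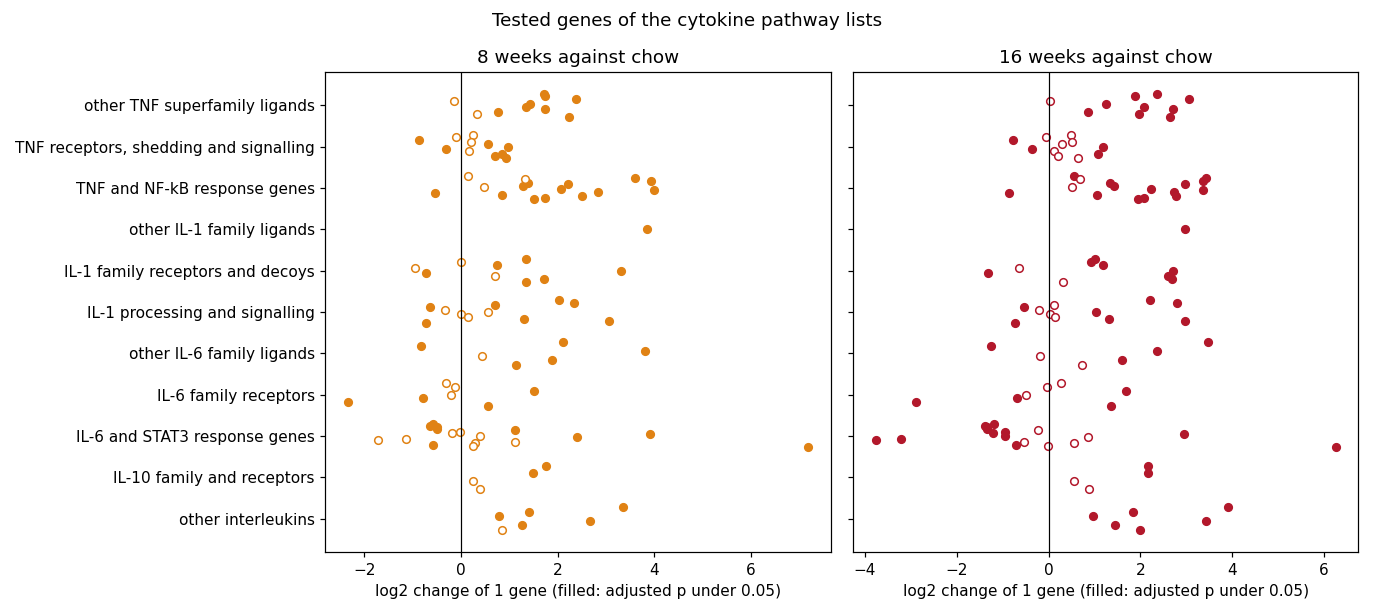
Log2 change of each tested gene (point, horizontal axis) in the 11 pathway lists at 8 weeks (left) and 16 weeks (right) against chow, filled where the adjusted p was under 0.05. Ligands and NF-kB response genes lie mostly right of 0, while 10 of the 17 IL-6 and STAT3 response genes lie left of it and are filled at 16 weeks.

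Compared per kilobase of exon, Il18 had the highest mean of the 10 genes in every group. Its means were 11.2 ± 1.15, 9.94 ± 2.37 and 8.08 ± 0.964 CPM per kilobase. Il18 exceeded Il1rn in 6 of 8 libraries at 8 weeks and in 5 of 8 at 16 weeks. The order depends on the exon lengths, unions of all annotated exons, of 1031 bases for Il18 and 5535 for Il1rn. In CPM, Il1rn was the higher of these at 16 weeks (43.1 against 8.33). In chow Il18 stood apart from Il1b (3.66) and Il1a (3.23), which overlapped each other and stood apart from Il33 (0.860) and Il1rn (0.687). Clear of these, Tnf (0.117), Il10 (0.0494), Osm (0.0392), Il6 (0.0181) and Lif (0.0121) followed, each overlapping its neighbour. At 16 weeks Il1rn (7.79 ± 1.73) came next to Il18, with overlapping ranges, and was clear of Il1b (3.94) and Il1a (3.70), which again overlapped. Tnf (2.81) overlapped Il1a above it and Il33 (2.31) below it. Lif (0.575) and Osm (0.487) overlapped each other and were clear of Il33 above, Osm was clear of Il10 (0.122) below, and Il6 (0.0374) was last. Lif moved from the last place in chow to the seventh, and Tnf from the sixth to the fifth.

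**Figure D4:**
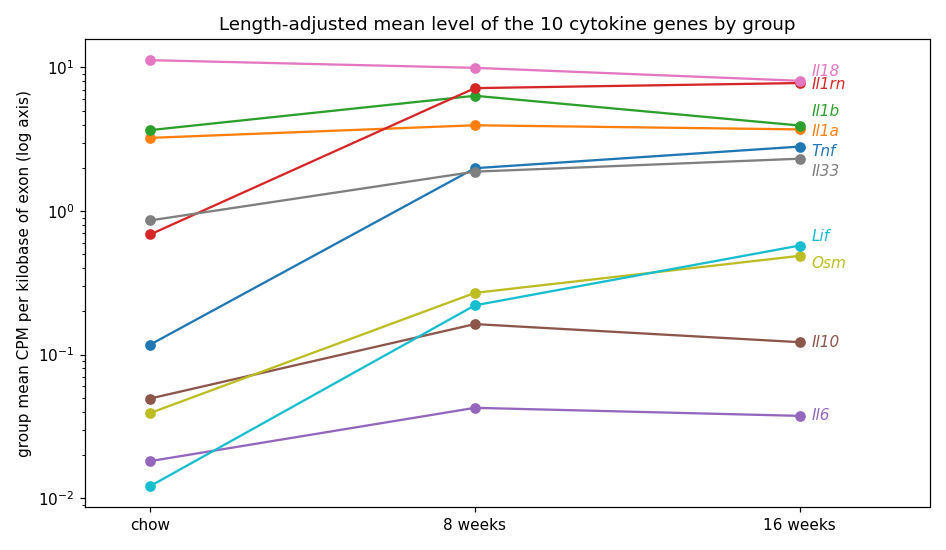
Group mean level of the 10 cytokine genes in CPM per kilobase of exon (vertical log axis) in chow, 8-week and 16-week livers (lines join the means of 1 gene). Il18, Il1a and Il1b stay between 3.23 and 11.2, whereas Tnf, Il1rn, Osm and Lif climb from chow, Lif from 0.0121 to 0.575.

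Between 8 and 16 weeks, 2 of the 8 tested cytokine genes differed, where 21.6% of all genes were called, and in none of the 8 were the groups clear of each other (3.09% of all genes, 2.58% with all 16-week livers above). Lif was higher at 16 weeks, 2.56-fold (log2 1.36, SE 0.38, adjusted p = 0.0164), with overlapping groups. The call was kept without 8-week replicate 3 (1.23, adjusted p = 0.0105) and lost without 8-week replicates 3, 4 and 5 (1.07, adjusted p = 0.0649). Il1b was lower, at -0.69 (SE 0.15, adjusted p = 0.00438), and 7 of the 8 livers of 8 weeks exceeded the highest of 16 weeks. Total counts alone moved this to -0.28 (adjusted p = 0.232), and under that scaling 3 of the 8 genes were higher and 0 lower, with Tnf (0.83, adjusted p = 0.0303) and Osm (1.16, adjusted p = 0.0389) called beside Lif. Tnf (0.49, 95% interval 0.08 to 0.91, adjusted p = 0.0943), Osm (0.83, 0.13 to 1.53, adjusted p = 0.0955) and Il18 (-0.30, -0.56 to -0.04, adjusted p = 0.0986) missed the threshold with TMM scaling. Il1rn (0.12, -0.34 to 0.57), Il33 (0.29, -0.10 to 0.69) and Il1a (-0.10, -0.43 to 0.23) were not called either. Of the IL-6 and STAT3 response genes, 0 rose and 10 of 17 fell between these times, or 3 fell under total counts alone.

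**Figure D5:**
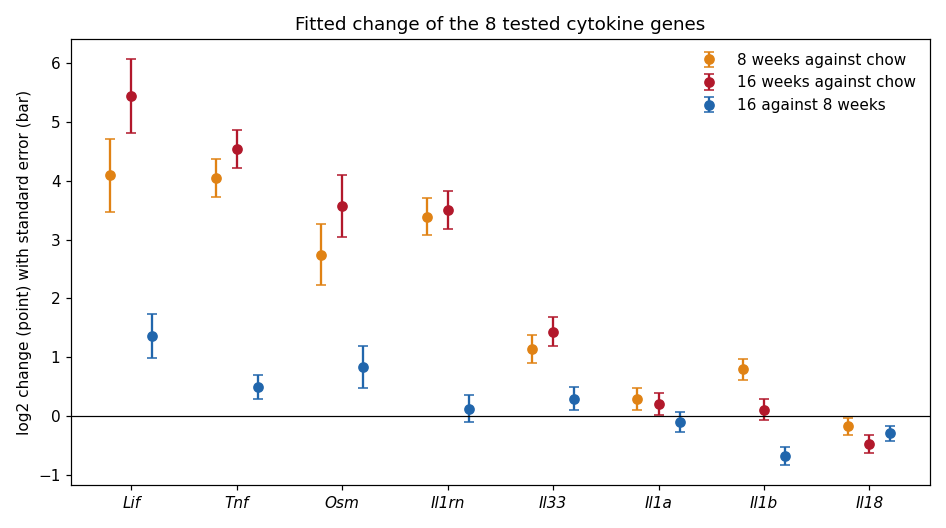
Fitted log2 change (points) with its standard error (bars) for the 8 tested cytokine genes at 8 weeks against chow, 16 weeks against chow and 16 against 8 weeks. Lif, Tnf, Osm and Il1rn rise by over 2.7 at both times, Il1b is called lower and Lif higher at 16 than at 8 weeks.

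Across the 21 libraries, once each group mean was removed, Il1rn, Il33, Osm and Lif varied together. The Pearson correlation of log2 CPM was 0.88 between Il33 and Lif, 0.81 between Osm and Lif, 0.81 between Il1rn and Il33, and 0.78 between Il1rn and Lif. Without 8-week replicate 3, an alternative added after the values were seen, these were 0.82, 0.73, 0.77 and 0.71 (n = 20). Tnf was at 0.23 with Il1rn, 0.37 with Il33, 0.45 with Osm and 0.56 with Lif, and at 0.60 with Il1b (0.12, 0.25, 0.36, 0.49 and 0.71 without that replicate). Il1a, Il1b and Il18 had correlations between -0.06 and -0.01 among themselves, although Il1a and Il18 stood at -0.39 without that replicate. The libraries share depth, scaling and the tissues named above, so these are descriptions. Of all other tested genes, Ccl3 was most like Tnf (0.87), Sema7a most like Il1rn (0.92), Cytip most like Osm (0.92), Stx3 most like Lif (0.91), Hnrnpa1 most like Il33 (0.90), Hebp1 most like Il18 (0.92), She most like Il1a (0.88) and Prpf31 most like Il1b (0.81). Without 8-week replicate 3, Ccl3, Sema7a, Cytip, Stx3 and Prpf31 kept their place, and other genes came first for Il33, Il18 and Il1a.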

How the data were processed

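Gene expression was measured by RNA sequencing of 21 libraries from mouse liver. The deposited values are raw, whole-number counts for each Ensembl gene. GRCm38 is the build per the submitters' processing notes, with aligner, counter, annotation release and strand setting not given in the sources used here. All 21 sample files equalled the series table. Symbols, coordinates and exon lengths came from GENCODE M21, which named 52489 of 52636 IDs (99.72%).

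The tests ran in edgeR 4.0.16 under R 4.3.3, with limma 3.58.1 loaded, and the summaries in Python 3.11.15. filterByExpr by group left 17104 genes holding 99.961% of the counts. All 21 libraries, scaled with TMM factors, entered 1 quasi-likelihood fit (glmQLFit, glmQLFTest), with 3 contrasts and Benjamini-Hochberg adjustment over all genes. A gene was called at an adjusted p under 0.05. Standard errors are the log2 change over the square root of F, and 95% intervals are normal. Totals per group were 33522456 to 42586342 (chow), 29037525 to 45868842 (8 weeks) and 35254088 to 48901145 (16 weeks). No source names molecular identifiers, so counts are of reads and not of molecules. The fit was first tested on simulated data.

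The text names all 10 cytokine genes and, from each pathway list, up to 3 called genes with the largest change in each comparison with chow. A gene that this rule picks among the other IL-6 family ligands is not reported here. The members and lists were chosen with earlier results of these data known. Most alike genes are those with the highest Pearson correlation of log2 CPM (prior count 2) after group means were removed. Alternatives were DESeq2 1.42.0 size factors, total counts alone, no filter, a mean of at least 1 CPM, a fit of the compared pair of groups by itself, DESeq2's Wald test, removal of the 20 most abundant genes, each library left out, and 2 sets of libraries with other tissues left out.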

Additional observations from a re-analysis of the deposited data

Results flagged for a closer look

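Lif in chow replicate 5 was 0.164 CPM, 6 counts, and stood far from the other 4 chow livers, its gap to the nearest being 0.776 of the group's range. Of 30 groups of values looked at in this way, 1 was so marked, and chance marks about 1 in 20. The same library held the highest chow values of Osm (0.247 CPM), Il1rn (6.52 CPM) and neutrophil markers (17.9 CPM) and 360.9 CPM of muscle markers. The part of these in the Lif value was not tested.

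The change of Il1b against chow differed between the diet groups, by -0.69 on the log2 scale (16 minus 8 weeks, adjusted p = 0.00438, edgeR's quasi-likelihood test), with 8 of 8 livers of 16 weeks below the median of 8 weeks. The change of Lif differed by 1.36 (adjusted p = 0.0164) in the other direction. Both comparisons share the chow livers, so each difference is that between the 8- and 16-week livers themselves.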

How the results depend on the processing

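Of 732 recomputed changes of single cytokine genes (27 changes, up to 30 alternatives), 715 kept their direction and side of the threshold, 11 gained a call, 2 lost one in the same direction and 4 turned. Under total counts alone Il18 turned to 0.05 at 16 weeks against chow, so that its call was lost too, and to 0.08 at 16 against 8 weeks, and Il1a to 0.25 at 16 against 8 weeks. With a library left out in turn, Il1b at 16 weeks against chow ran from -0.02 (without chow replicate 1) to 0.18 (without chow replicate 5). The calls lost with the direction kept were Il1b under total counts (-0.28) and Lif without 8-week replicates 3, 4 and 5 (1.07), both at 16 against 8 weeks, and the number of cytokine genes called there fell from 2 to 1 without these 3 libraries. With a library left out in turn, 6 to 7 cytokine genes were called at 8 weeks, 6 to 7 at 16 weeks and 2 to 3 between them. The gene added in the comparisons with chow was Il10, which among these fits was tested only where a chow library was left out. Over all genes the calls were 7563 to 9748 (8772 with all libraries), 8099 to 11308 (8873) and 2248 to 5132 (3703). At 16 against 8 weeks all genes gave 2226 calls when only these 2 groups were fitted and 5579 without the 5 libraries with squamous epithelium transcripts, and the share of called genes that were higher was 62.0% to 64.9% with no filter, with only these groups or without 8-week replicates 3, 4 and 5, against 49.0%. The cause was not tested. A mean of at least 1 CPM left Osm untested.

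No paired analysis was possible because the labels give the groups no shared replicate numbers. Depth limits Il6, Il10 and the chow values of Lif, Osm and Tnf, with 7, 11, 9, 15 and 32 counts over 5 libraries.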
